A study of Mus musculus with 10 samples.

Results

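Cytochrome oxidase, the last enzyme of the mitochondrial respiratory chain, was followed through the 10 nuclear genes Cox4i1, Cox4i2, Cox6a1, Cox6a2, Cox6b1, Cox7a1, Cox7a2, Cox7a2l, Cox8a and Cox8b. They were chosen by symbol as the subunits that exist in alternative tissue forms or sit beside them, out of 15075 genes, and all 10 passed the filter on low values that left 11244 genes for testing. RNA came from interscapular brown fat (iBAT) of 5 Control and 5 AdCKO mice, 1 library per mouse. Both groups were C57BL/6 mice aged 20 weeks and housed at room temperature, and both carried floxed copies of Crls1, in which loxP sites flank exon 4. Crls1 encodes cardiolipin synthase, the enzyme that makes the mitochondrial phospholipid cardiolipin. AdCKO mice also carried Adipoq-Cre, which acts in adipocytes and leaves Crls1 intact in the other cells of the tissue, whereas Control mice (WT in the labels, although floxed) had no Cre. The comparison asks how the isoform genes of cytochrome oxidase stood in brown fat in which Crls1 was deleted in adipocytes.

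Cytochrome oxidase takes electrons from cytochrome c, passes them to oxygen and pumps protons across the inner membrane. Its catalytic core is encoded in mitochondrial DNA, and the surrounding subunits come from nuclear genes. Subunits 6A, 7A and 8 exist as a liver-type form (Cox6a1, Cox7a2 and Cox8a), made in most tissues, and a heart-type or muscle-type form (Cox6a2, Cox7a1 and Cox8b), made in heart and skeletal muscle, and Cox7a1 and Cox8b are also well known from brown fat. Subunit 4 has a common form, Cox4i1, and a form known from lung and low oxygen, Cox4i2. Cox6b1 encodes the common subunit facing the intermembrane space. Cox7a2l encodes a relative of subunit 7A known from work on supercomplexes with complex III, and its function in these mice was not tested.

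Values are normalized reads per kb of counted exon, so levels can be compared between genes. Crls1 stood at 1291, 927, 813, 1101 and 1170 in Control replicates 1 to 5 and at 193, 195, 249, 208 and 242 in AdCKO replicates 1 to 5. Its log2 fold change was -2.27 (SE 0.13), with an adjusted p from limma of 3.53e-08. The groups did not overlap for the targeted gene. The value covers every exon of the gene, so it does not measure the removal of exon 4 itself. Log2 fold changes here are AdCKO minus Control after adding 1 to each value, so that changes of low genes come out too small, and a gene is called at an adjusted p under 0.01.

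Ucp1, the uncoupling protein that defines brown adipocytes, lay between 24203 and 46570 in the Control group and between 7895 and 18828 in the AdCKO group. Libraries also differed in skeletal muscle transcripts, which matters for genes known from muscle. The summed level of 20 skeletal muscle markers lay between 560.2 and 616 in Control, at 430 and 468 in AdCKO replicates 3 and 5, and at 9911, 36969 and 14468 in AdCKO replicates 1, 2 and 4. Most of the Control sum was Myl1, at 330 to 397 in Control and at 138 and 159 in AdCKO replicates 3 and 5. The lower sums in replicates 3 and 5 therefore do not show that the other markers were lower there. None of the 20 markers was at 0 in any library, but no deposited value of any gene was 0, so this does not show detection. Results are therefore also given with AdCKO replicates 1, 2 and 4 left out, a choice made after seeing the data. Cardiac markers were low throughout: the 4 found of 7 listed summed to between 9.12 and 16.1 in every library.

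Of the 10 genes, 7 were called lower in AdCKO, 1 was called higher and 2 were not called. Among all tested genes 28.0% were called lower and 25.6% higher. The AdCKO libraries all lay below the Control libraries for 7 of the 10 genes and above them for 1, where the same held for 26.4% and 24.5% of all tested genes. The median was -0.80 on the log2 scale over the 10 genes and -0.01 over all tested genes. With AdCKO replicates 1, 2 and 4 left out, 6 of the 10 were called lower and 1 higher, beside 19.7% and 18.8% of all tested genes. Cells lost from the tissue and less RNA per cell cannot be told apart in bulk RNA.

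**Figure D1:**
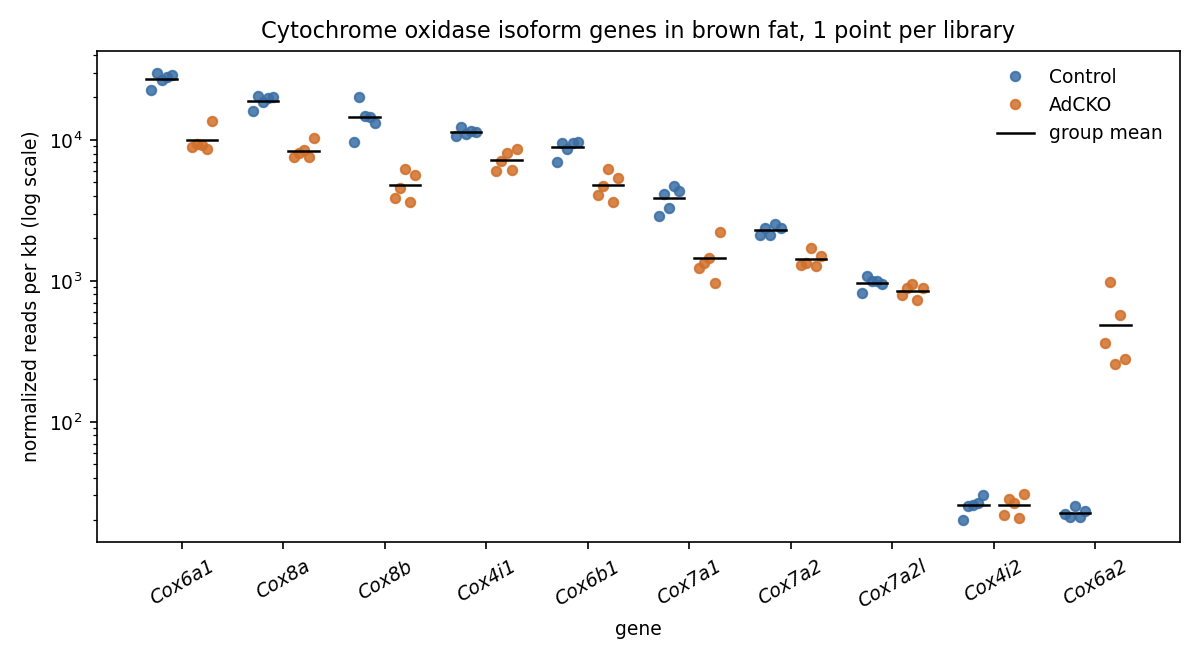
Normalized reads per kb (log axis) of the 10 cytochrome oxidase isoform genes, ordered by their Control mean, with 1 point for each of 5 Control and 5 AdCKO libraries and a line at each group mean. Cox6a2, at the far right, lies between 21.0 and 25.1 in Control and between 256 and 976 in AdCKO, while Cox6a1 at the far left goes from 22734 or more to 13548 or less.

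In Control iBAT, Cox6a1 had the highest level (27223 ± 2770, SD, n = 5), followed by Cox8a (18998 ± 1823), Cox8b (14420.3 ± 3775), Cox4i1 (11422 ± 598), Cox6b1 (8868 ± 1106), Cox7a1 (3870.0 ± 756), Cox7a2 (2307 ± 184) and Cox7a2l (969.5 ± 97.5). Cox4i2 (25.5 ± 3.61) and Cox6a2 (22.5 ± 1.71) were far below the rest. The ranges of neighbours in this order overlapped for Cox8a and Cox8b, for Cox8b and Cox4i1, and for Cox4i2 and Cox6a2. Heart-type forms were thus not alike in Control tissue: Cox7a1 was above its liver-type partner in 5 of 5 libraries, Cox8b was below Cox8a in 5 of 5, and Cox6a2 had the lowest mean of the 10, below Cox4i2 in 4 of 5 libraries. AdCKO tissue kept Cox6a1 (9922 ± 2050) and Cox8a (8399 ± 1116) on top, with overlapping ranges, and Cox8b (4768 ± 1123) came after Cox4i1 (7179 ± 1156) and Cox6b1 (4817 ± 1048). Cox6a2 (489.5 ± 299.6) was above Cox4i2 (25.6 ± 4.18) in 5 of 5 AdCKO libraries.

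The 6A pair moved in opposite directions. Cox6a2, the heart-type and muscle-type form of subunit 6A, was at 22.0, 21.2, 25.1, 21.0 and 23.4 in Control and at 360.3, 976, 256, 575 and 280.0 in AdCKO. Every AdCKO library was above every Control library, and replicates 2 and 4 were the highest. The ratio of the means was 21.7, and the log2 fold change was 4.19 (SE 0.30, adjusted p = 2.11e-07), the 13th highest among the tested genes. With AdCKO replicates 1, 2 and 4 left out, Cox6a2 had rank 22 of 11097 tested genes. Cox6a1, the liver-type form, was at 22734, 29781, 26658, 27941 and 28999.9 in Control and at 8955, 9374, 9182, 8554 and 13548 in AdCKO. All AdCKO libraries were below all Control libraries, with replicate 5 the highest of them. Cox6a1 fell 2.74-fold, a log2 fold change of -1.47 (SE 0.14, adjusted p = 2.17e-06).

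The coding sequences of the 6A pair are shown because the opposite changes rest on reads being told apart between both genes. They are written from base 1 of the Cox6a2 reading frame and base 46 of the Cox6a1 reading frame to the stop codon. The source was GENCODE vM1 transcripts on NCBIM37 (mm9). Capitals mark bases that differ from the aligned base or lie opposite a gap.
Cox6a2: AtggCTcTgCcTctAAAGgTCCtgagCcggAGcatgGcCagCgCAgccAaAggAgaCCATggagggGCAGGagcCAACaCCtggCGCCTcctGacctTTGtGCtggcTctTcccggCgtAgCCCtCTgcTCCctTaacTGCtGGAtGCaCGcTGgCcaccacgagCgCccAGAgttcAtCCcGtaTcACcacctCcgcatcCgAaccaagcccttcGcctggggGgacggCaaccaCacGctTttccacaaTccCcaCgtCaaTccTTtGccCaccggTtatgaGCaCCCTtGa
Cox6a1: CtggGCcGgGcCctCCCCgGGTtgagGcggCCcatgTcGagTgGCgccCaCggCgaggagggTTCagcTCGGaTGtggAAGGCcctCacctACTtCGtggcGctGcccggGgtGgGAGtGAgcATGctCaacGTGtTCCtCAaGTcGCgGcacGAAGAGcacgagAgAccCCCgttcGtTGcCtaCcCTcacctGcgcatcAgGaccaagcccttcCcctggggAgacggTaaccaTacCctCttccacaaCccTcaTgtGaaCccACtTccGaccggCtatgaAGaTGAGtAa
Of 294 bases in each stretch, 114 are in capitals, some of them opposite a gap. The 288 bases aligned with a base of the partner were 62.5% identical. The longest run of identical bases anywhere in both reading frames was 12 bases, and the translated sequences were identical at 57 of 95 aligned residues (60.0%). For the other pairs, protein identity was 56.2% for Cox7a1 and Cox7a2, 42.6% for Cox8b and Cox8a, and 84 of 168 residues for Cox4i2 and Cox4i1. The longest shared runs of these 3 pairs were 12, 10 and 14 bases. A search of the mm9 genome with each reading frame found no other copy at 95% identity over 80% of its length for 9 of the 10 genes and 1 such copy for Cox7a2l, whose counts are less certain for that reason.

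Muscle transcripts moved with part of the Cox6a2 result. Ckm, the creatine kinase of skeletal muscle, was at 12.0 to 14.5 in Control, and at 1390.0, 5354, 9.50, 1985 and 11.9 in AdCKO replicates 1 to 5. The order of the AdCKO libraries was the same for Ckm and for Cox6a2. In replicates 3 and 5, where Ckm was below every Control library, Cox6a2 stood at 256 and 280.0, with a mean 11.9-fold that of Control. The mean of replicates 1, 2 and 4 was 2.38-fold above that of replicates 3 and 5. With those 3 libraries left out, the log2 fold change of Cox6a2 was 3.52 (SE 0.11, adjusted p = 1.66e-08), and with a skeletal muscle score as a covariate it was 3.44 (adjusted p = 1.24e-07). Acta1, skeletal muscle actin, was at 93.3 and 74.5 in replicates 3 and 5 and at 39.4 to 56.1 in Control, and Mb, which encodes myoglobin, was at 88.1 and 117 against 24.3 to 82.0, so not every muscle transcript was at its Control level there.

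**Figure D2:**
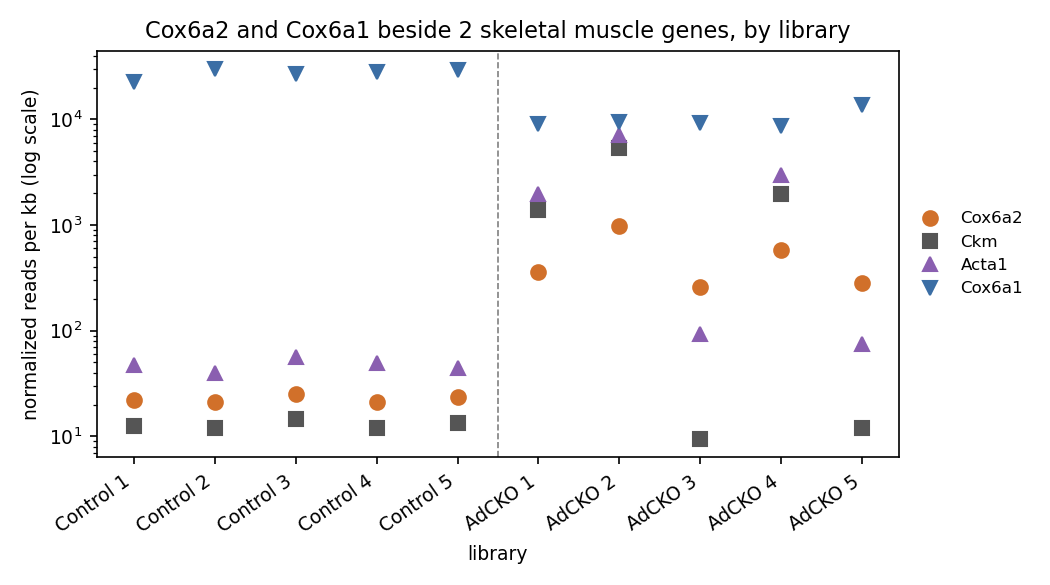
Normalized reads per kb (log axis) of Cox6a2, Cox6a1 and the skeletal muscle genes Ckm and Acta1 in each of the 10 libraries, with a dashed line between Control and AdCKO. In AdCKO replicates 3 and 5, Ckm is at 9.50 and 11.9, against 12.0 to 14.5 in Control, while Cox6a2 is at 256 and 280.0.

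Cox7a1, the heart-type form of subunit 7A, behaved unlike Cox6a2. It was at 2901, 4136, 3279.9, 4728 and 4305 in Control and at 1242, 1342, 1455, 971 and 2207 in AdCKO. The groups did not overlap. Cox7a1 fell 2.68-fold, a log2 fold change of -1.45 (SE 0.20, adjusted p = 4.2e-05). Its liver-type partner Cox7a2 was at 2130.4, 2369, 2114, 2549 and 2372 in Control and at 1290.1, 1347, 1718, 1282 and 1495 in AdCKO, again without overlap. The fall of Cox7a2 was 1.62-fold, with a log2 fold change of -0.70 (SE 0.10, adjusted p = 4.17e-05).

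The heart-type form of subunit 8, Cox8b, had the lowest log2 fold change of the 10 genes. Control libraries held 9594, 20087, 14754, 14458 and 13208, and AdCKO libraries held 3847, 4551, 6221, 3613 and 5609. No AdCKO library reached the lowest Control library, and the Control libraries were spread more widely than for Cox8a. Cox8b fell 3.02-fold (log2 fold change -1.59, SE 0.20, adjusted p = 2.08e-05). Cox8a, the liver-type form, was at 15961, 20409, 18646, 19932 and 20040.0 in Control and at 7618, 8066, 8421, 7591 and 10297 in AdCKO. It fell 2.26-fold without overlap (log2 fold change -1.18, SE 0.12, adjusted p = 2.76e-06). In the libraries with muscle transcripts Cox7a1 and Cox8b had lower means than in the other AdCKO libraries, 1185 against 1831 and 4004 against 5915. The same held for every other member except Cox6a2, among them Cox7a2 (1306 against 1606) and Cox8a (7758 against 9359). With replicates 1, 2 and 4 left out, Cox7a1 was still called lower, at -1.09 on the log2 scale (adjusted p = 0.00144), and Cox8b at -1.25 (adjusted p = 0.00115).

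Cox4i1, the common form of the subunit that binds nucleotides, was at 10692, 12292, 11096, 11605 and 11425 in Control and at 6044, 7046, 8076, 6106 and 8623 in AdCKO. It fell 1.59-fold without overlap (log2 fold change -0.68, SE 0.12, adjusted p = 0.000236). Cox4i1 was no longer called with AdCKO replicates 1, 2 and 4 left out (log2 fold change -0.45, adjusted p = 0.0134). Cox4i2, its alternative form, was at 20.1, 25.2, 25.7, 26.6 and 30.2 in Control and at 21.9, 28.1, 26.4, 20.9 and 30.7 in AdCKO. The groups overlapped across most of their range, and the log2 fold change of 0.00 had a 95% interval from -0.28 to 0.28 (adjusted p = 0.998). The gene overlaps Bcl2l1, on the opposite strand, by 6306 bases but shares no exon base with it in the annotation, and Bcl2l1 was at 52.6 to 96.4 in all libraries.

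Cox6b1, whose subunit takes part in the contact of cytochrome oxidase with cytochrome c, was at 7009.7, 9559, 8680.1, 9484 and 9606 in Control and at 4086, 4742, 6265, 3616 and 5374 in AdCKO. It fell 1.84-fold without overlap (log2 fold change -0.90, SE 0.15, adjusted p = 0.000224). Cox7a2l, the supercomplex factor, was at 817, 1082, 999, 998 and 952 in Control and at 789, 883, 949, 729 and 889 in AdCKO. Its groups overlapped, and its log2 fold change of -0.19 (95% interval -0.40 to 0.01, adjusted p = 0.0865) did not pass the threshold.

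**Figure D3:**
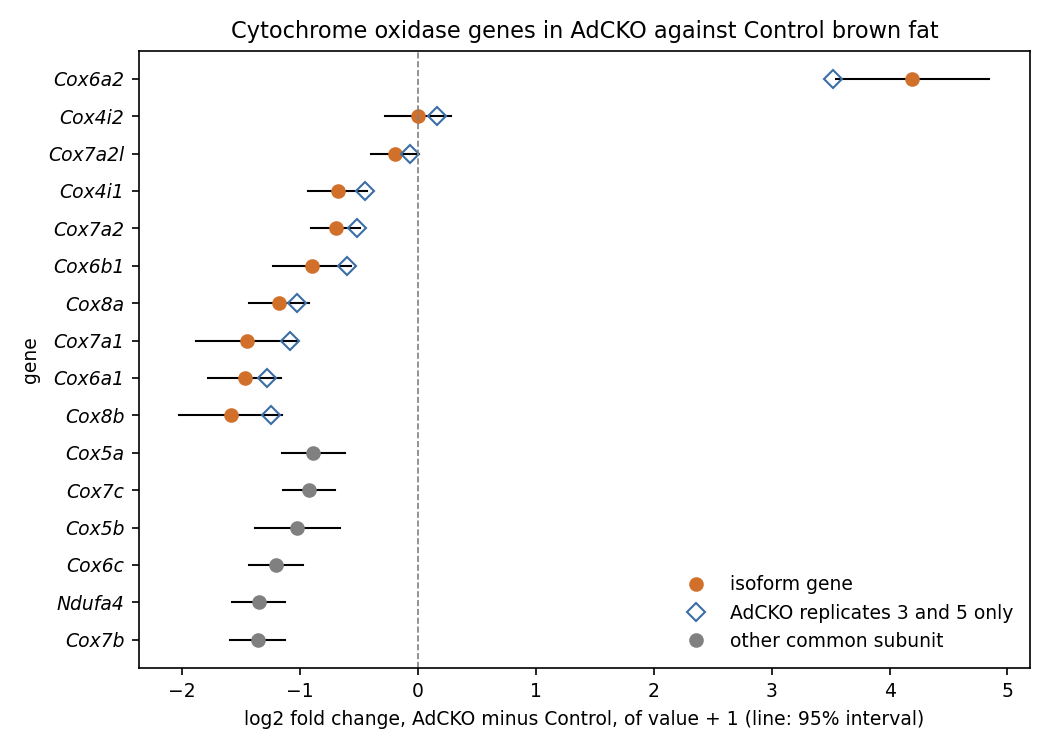
Log2 fold change (AdCKO minus Control, of value + 1) of the 10 isoform genes (orange) and of 6 other common cytochrome oxidase subunits (grey), with lines for the 95% interval and open diamonds for the isoform genes with AdCKO replicates 3 and 5 only. Cox6a2 lies at 4.19, with its diamond at 3.52, and the 7 called lower lie between -1.59 and -0.68.

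The scaling between libraries affected the size of the falls. The sum of normalized reads of a library was 7615403 to 8171138 in the Control group and 5419800 to 5843024 in the AdCKO group. When every library was set to the same total, the median over all genes went from -0.01 to 0.47 on the log2 scale. Cox6a1, Cox7a1, Cox8a and Cox8b were still called lower there, while Cox4i1 (-0.20, adjusted p = 0.109), Cox6b1 (-0.42, adjusted p = 0.023) and Cox7a2 (-0.22, adjusted p = 0.0563) were not, and Cox4i2 was called higher (0.46, adjusted p = 0.0045). Relative to the median of all genes, Cox4i2 then lay at -0.01 and Cox7a2l at -0.18, against 0.01 and -0.18 without that rescaling. Under quantile normalization Cox6a1, Cox7a1 and Cox8b were called lower, and Cox4i1 stood at 0.15 (adjusted p = 0.164). Cox6a2 was called higher under both, at 4.67 and 4.16. At the same total, 4 of the 10 genes were lower and 2 higher, where 9.57% of all tested genes were lower and 61.4% higher. Under quantile normalization 3 of the 10 were lower and 1 higher, near the 31.9% and 22.2% of all tested genes.

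Ratios of partner genes within a library do not depend on a common scale of the library, and therefore compare heart-type with liver-type forms directly. Each was taken as the log2 of (tissue form + 1) over (common form + 1) and tested by exact permutation of the 5 and 5 libraries (two-sided), where no p can be under 0.00794. The 4 pairs gave 4 tests, and Benjamini-Hochberg adjusted values are given beside the raw p.

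The ratio of Cox6a2 to Cox6a1 was -9.95, -10.39, -10.00, -10.31 and -10.21 in Control and -4.63, -3.26, -5.16, -3.89 and -5.59 in AdCKO. The groups were far apart, with a mean difference of 5.67 (exact permutation p = 0.00794, adjusted 0.0159). Even so, Cox6a2 remained the minor form: its share of the summed 6A level was 0.0835% ± 0.0114 in Control and 4.87% ± 3.02 in AdCKO (SD, n = 5), with a highest share of 9.43% in replicate 2. In AdCKO replicates 3 and 5 the share was 2.72% and 2.02%. The summed level of both 6A genes went from 27245 ± 2770 to 10412 ± 1967, which is 38.2% of the Control mean.

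For Cox7a1 over Cox7a2 the ratio went the other way. It was 0.45, 0.80, 0.63, 0.89 and 0.86 in Control and -0.05, -0.01, -0.24, -0.40 and 0.56 in AdCKO. AdCKO replicate 5 lay inside the Control range and the other 4 AdCKO libraries lay below it. The mean difference was -0.75 (exact permutation p = 0.0159, adjusted 0.0212), and Cox7a1 went from 62.3% ± 3.05 to 49.5% ± 6.27 of the summed 7A level. Cox7a1 exceeded Cox7a2 in 1 of 5 AdCKO libraries. The 7A sum was 46.5% of its Control mean.

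Cox8b over Cox8a was -0.73, -0.02, -0.34, -0.46 and -0.60 in Control and -0.99, -0.83, -0.44, -1.07 and -0.88 in AdCKO. The groups overlapped, with a mean difference of -0.41 (exact permutation p = 0.0476, adjusted 0.0476). This call depended on single libraries: without Control replicate 2 the difference was -0.30 (p = 0.0952), without Control replicate 3 it was -0.38 (p = 0.0952), and without Control replicate 4 it was -0.41 (p = 0.0794, all exact permutation tests). Leaving out AdCKO replicate 1, 2, 4 or 5 gave differences of -0.37, -0.41, -0.35 and -0.40, with exact permutation p of 0.0952, 0.0794, 0.0952 and 0.0794. The share of Cox8b in the summed level was 42.6% ± 4.63 in Control and 35.9% ± 3.96 in AdCKO, and the sum was 39.4% of its Control mean.

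Cox4i2 over Cox4i1 was between -8.98 and -8.52 in Control and between -8.20 and -7.92 in AdCKO. The groups did not overlap, with a mean difference of 0.68 (exact permutation p = 0.00794, adjusted 0.0159). Cox4i2 itself was at like values in both groups and Cox4i1 was lower, and the share of Cox4i2 in the summed level stayed under 1%, at 0.223% ± 0.0288 and 0.356% ± 0.0269. Quantile normalization, which does not keep ratios within a library, turned this difference to -0.42.

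The 3 heart-type genes thus did not move together against their partners: the ratio rose for subunit 6A and fell for subunits 7A and 8. With AdCKO replicates 1, 2 and 4 left out the differences were 4.80 for 6A, -0.56 for 7A, -0.22 for 8 and 0.62 for 4. Their exact permutation p were 0.0952, 0.19, 0.476 and 0.0952, where 5 against 2 libraries cannot go below 0.0952.

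**Figure D4:**
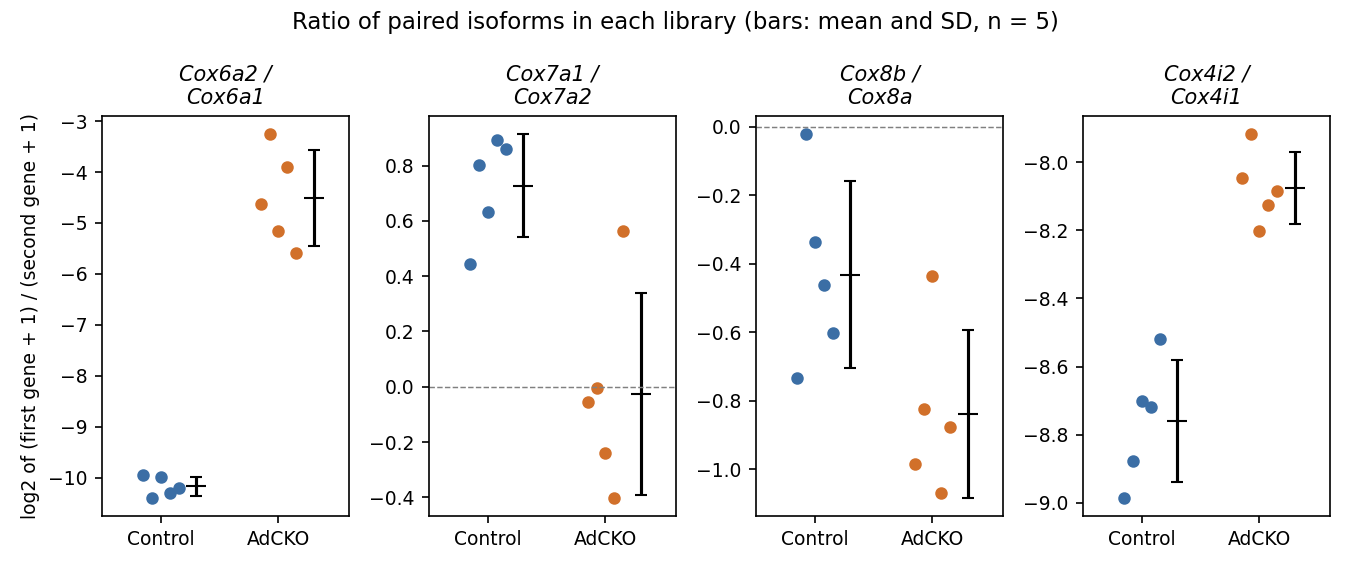
Log2 ratio of paired isoform genes in each Control and AdCKO library, 1 panel per pair with its own axis, and bars for the mean and SD of 5 libraries. The AdCKO points lie above the Control points for Cox6a2 over Cox6a1 and for Cox4i2 over Cox4i1, and have lower means, with overlap, for Cox7a1 over Cox7a2 and for Cox8b over Cox8a.

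The stretch of 250 bases before the transcript start is shown for both 6A genes, which went in opposite directions, and for the other heart-type genes, which fell. The bases were read from NCBIM37 (mm9), are written 5′ to 3′ on the strand of the gene, and have matches to 7 searched motifs in capitals. These windows lie at chr7:135349881-135350130 on the minus strand for Cox6a2, chr5:115798965-115799214 on the minus strand for Cox6a1, chr7:30968940-30969189 on the plus strand for Cox7a1 and chr7:148086346-148086595 on the minus strand for Cox8b.
Cox6a2: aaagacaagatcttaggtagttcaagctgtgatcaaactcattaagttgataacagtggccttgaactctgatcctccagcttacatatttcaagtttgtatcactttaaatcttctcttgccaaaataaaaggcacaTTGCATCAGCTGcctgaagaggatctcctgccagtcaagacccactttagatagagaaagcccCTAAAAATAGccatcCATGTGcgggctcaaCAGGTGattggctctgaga
Cox6a1: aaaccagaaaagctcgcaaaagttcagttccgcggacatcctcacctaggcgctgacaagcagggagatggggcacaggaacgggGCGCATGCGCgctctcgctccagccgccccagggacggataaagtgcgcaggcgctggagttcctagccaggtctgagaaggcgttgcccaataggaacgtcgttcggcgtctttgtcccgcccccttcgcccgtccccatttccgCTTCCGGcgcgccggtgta
Cox7a1: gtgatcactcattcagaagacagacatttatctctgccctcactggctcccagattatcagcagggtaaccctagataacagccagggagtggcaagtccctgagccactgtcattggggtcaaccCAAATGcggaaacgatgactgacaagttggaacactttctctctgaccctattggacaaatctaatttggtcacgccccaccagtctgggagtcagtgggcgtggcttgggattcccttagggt
Cox8b: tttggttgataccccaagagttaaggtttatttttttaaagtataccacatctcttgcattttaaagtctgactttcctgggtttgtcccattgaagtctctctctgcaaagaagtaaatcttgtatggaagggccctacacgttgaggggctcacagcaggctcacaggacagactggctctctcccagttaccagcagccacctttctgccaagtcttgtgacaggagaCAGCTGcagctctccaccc
Both strands were searched for the NRF1 motif GCATGCGC, the ETS motif CCGGAAG, the nuclear receptor half-site AAGGTCA, the E-box CANNTG, the TATA box TATAAA, the stress element TGATGNAA bound by ATF4 and CHOP, and the MEF2 site of muscle genes. The Cox6a2 window held a MEF2 site whose first base lay 49 bases before the start, as did 0.431% of 15073 windows of the same length in the table. It also held a match to TGATGNAA 112 bases before the start (2.03% of windows), which overlaps 1 of its 3 E-boxes. No other window of the 10 genes held either motif. The Cox6a1 window held an NRF1 motif on both strands in 1 overlapping stretch 165 bases before the start (3.91% of windows) and an ETS motif 19 bases before it (12.4%), and no E-box. The other 9 genes each held an E-box, as did 57.9% of all windows.

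Heart-type windows were poorer in CG dinucleotides than their partners. Cox6a2, Cox7a1 and Cox8b held 1, 4 and 1, whereas Cox6a1, Cox7a2 and Cox8a held 26, 14 and 11, and the median over all windows was 14. The G and C content was 42.0%, 51.2% and 47.2% for the heart-type genes and 63.2%, 54.8% and 52.8% for the liver-type genes. These are descriptions of the letters in the windows, and no binding was measured.

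Cytochrome oxidase subunits outside the isoform pairs fell as well. All 6 of the other common subunits were called lower, beside 28.0% of all tested genes, with a median log2 fold change of -1.11. Cox7b (-1.36), Ndufa4 (-1.35), Cox6c (-1.21), Cox5b (-1.02), Cox7c (-0.92) and Cox5a (-0.89) had adjusted p from 3.6e-07 to 0.000154. With AdCKO replicates 1, 2 and 4 left out 6 of 6 were called lower (median -0.90), beside 19.7% of all tested genes. At the same total in every library 6 of 6 were still called lower, beside 9.57% of all tested genes. Under quantile normalization 3 of 6 were called lower, beside 31.9%. The median of the 6 minus that of all genes was then -0.22, against -1.10 in the main fit. Against the range of these 6 subunits in the main fit, Cox6a1, Cox7a1 and Cox8b had lower log2 fold changes. Cox8a and Cox6b1 lay inside that range, and Cox4i1 and Cox7a2 lay nearer to 0, a difference that was not tested. Cox6b2, a testis form of subunit 6B and the only 1 of 3 testis forms in the table, was at 35.8 to 41.2 in Control and 24.9 to 42.2 in AdCKO and was not called (log2 fold change -0.38, adjusted p = 0.0215).

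Most genes that build the enzyme were called lower over all 10 libraries, beside 28.0% of all tested genes. So were 2 of 3 genes linked to cytochrome c. Of 24 assembly factors tested, 20 were called lower, and all 24 had a log2 fold change below 0, with a median of -0.53. Taco1 (-1.03), which activates translation of the mitochondrially encoded subunit 1, Timm21 (-0.98), Sco1 (-0.83), a copper chaperone, and Surf1 (-0.76), needed for assembly, had the smallest p. With AdCKO replicates 1, 2 and 4 left out, 9 of the 24 were called lower (median -0.39), beside 19.7% of all tested genes. At the same total in every library 4 of the 24 were called lower and 2 higher, beside 9.57% and 61.4% of all tested genes, and 24 of 24 stayed below the median of all genes. Among the genes linked to cytochrome c, Cycs (-0.61), which encodes it, and Cyc1 (-1.19), for cytochrome c1 of complex III, were lower. Hccs, which attaches heme to cytochrome c, was at 0.44 (adjusted p = 0.0126) and was not called. Hccs was called higher with AdCKO replicates 1, 2 and 4 left out, where 2 of the 3 genes were called lower.

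Cell type markers moved with the same comparison, in which 28.0% of all tested genes were called lower and 25.6% higher. Of 10 brown adipocyte markers, 7 were called lower (median -1.28), with the smallest p for Otop1 (-1.78), Prdm16 (-1.29), Cpt1b (-1.32) and Cidea (-1.63). Of the others, Dio2 was at 0.90 (adjusted p = 0.0145), Elovl3 at -0.06 and Ppara at -0.54, and none of these 3 was called. At the same total 6 of the 10 were lower and 2 higher, beside 9.57% and 61.4% of all tested genes. With AdCKO replicates 1, 2 and 4 left out 5 were lower, beside 19.7% of all tested genes. The summed level of the list was 49904 to 73268 in Control and 15963 to 35273 in AdCKO. Of 8 general adipocyte markers 6 were lower, with the smallest p for Lipe (-1.20), Cebpa (-1.11) and Plin1 (-0.62), and Retn was higher (1.42). This count depended on scaling: at the same total 2 of the 8 were lower and 1 higher. Under quantile normalization 1 was lower and 1 higher (median 0.09), beside 31.9% and 22.2% of all tested genes. All 9 macrophage markers were higher (median 2.66), with the smallest p for Trem2 (3.75), Cd68 (4.09), Itgam (2.99) and Itgax (2.57), and summed to between 437 and 1198 in Control and between 5848 and 7996 in AdCKO. Of 19 skeletal muscle markers tested, 3 were called higher (Mb, Acta1 and Mybpc2), beside 25.6% of all tested genes. The median over the 19 was 3.51. With AdCKO replicates 1, 2 and 4 left out, 9 of these markers were tested, with a median of -0.26, and 1 was called lower and 1 higher. None of the markers of these lists was at 0 in any library, which held for every gene deposited and does not show detection. The part of these cells in the values of the cytochrome oxidase genes was not tested.

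Pericytes and oxygen-responsive genes were included because Cox4i2 is known from both settings. Of 9 pericyte markers, 3 were called lower, including Rgs5 (-0.89) and Cspg4 (-0.55), and Mcam (0.82) and Notch3 (0.30) were higher. Of 9 hypoxia-response genes tested, 6 were lower, including Pdk1 (-2.19), Ldha (-0.97) and Bnip3 (-1.21), and Slc2a1 (1.21) and Lonp1 (0.53) were higher. This count depended on scaling: at the same total 4 of the 9 were lower and 3 higher, beside 9.57% and 61.4% of all tested genes. Under quantile normalization 3 were lower and 2 higher, near the 31.9% and 22.2% of all tested genes. Of 6 endothelial markers, Pecam1 (0.55) and Cldn5 (0.96) were higher and 4 were not called. The pericyte counts and the count of higher endothelial markers are near the 28.0% lower and 25.6% higher among all tested genes.

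Across the 10 libraries, after the group means were taken out on the log2 scale, the genes most like Cox6a2 were Asb5, Cap2, Tpm1, Jph2 and Nexn, with Pearson r from 0.976 to 0.987. For Ckm and Acta1 against Cox6a2 the r was 0.860 and 0.884. The genes most like Cox7a1 were Tysnd1, Ccdc28b, Ndufa6, Letm1 and Dusp8 (r from 0.939 to 0.978), and those most like Cox8b were Cisd1, Cox7a2l, Cx3cl1, Myeov2 and Slc25a39 (r from 0.949 to 0.978). Within the 10 genes the highest r was 0.964, for Cox6a1 and Cox8a, and Cox6a2 had a negative r with each of the other 9, from -0.58 to -0.08. These values describe 10 points that share their libraries.

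Genes next to Cox6a2 on the chromosome were called in either direction or not at all. Cox6a2 (chr7:135348949-135349880, minus strand) overlaps the end of Itgad by 69 bases on the opposite strand, and Itgad was between 1.31 and 2.96 in every library. Whether the counting used strand is not given in the sources used here. Within 50 kb, Tgfb1i1 was called higher (0.84), 9130023H24Rik lower (-0.50), and Armc5 was not called (0.07). Cox4i1 lies 112 bases from Emc8, on the opposite strand, which was also lower (-0.67), as was 1190005I06Rik (-1.04). Cox8b lies 299 bases from Psmd13, which was not called (-0.12), and among its other neighbours Sirt3, a mitochondrial deacetylase, fell (-1.22), as did Bet1l (-0.47). Next to Cox8a, Macrod1 was lower (-1.51) and Naa40 higher (0.24), and next to Cox6a1, Coq5 was lower (-0.69) and Dynll1 higher (0.57).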

How the data were processed

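Groups of 5 Control and 5 AdCKO libraries of brown fat RNA were compared, with groups and replicate numbers from the sample titles. For polyadenylated RNA, the authors used STAR for mapping to mm9, HOMER for tag directories, iRNA-seq for exon counts and DESeq2 for normalization. What they deposited is a signal, normalized reads divided by kb of exon counted, and not counts: the values are never 0, and at best 22.8% to 24.3% of low values lay within 0.1 of whole-read steps, against 20% by chance. The depth of the libraries is unknown and counting error cannot be given. The deposited fold changes, adjusted p-values, group means and gene lists were not used.

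Values were tested as log2(value + 1) with limma 3.58.1 in R 4.3.3 (lmFit, eBayes with trend, two-sided) for 11244 genes (mean of 10 or more in a group), with Benjamini-Hochberg adjustment over all of them and a threshold of 0.01. The authors' count test was not run on these values. On simulated data for 11039 genes, 190 of 200 changed genes were recovered (95.0%), with 2 false calls. The simulation drew independent noise for each gene and library. It had far fewer changed genes than were called here and no difference in library totals. It therefore does not give the error rate of the test on these data. Isoform ratios were compared with exact permutation tests in scipy 1.17.1. Sequences came from NCBIM37 (mm9) and GENCODE vM1, aligned with Biopython 1.88 and searched with blastn 2.17.0.

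The members, lists and motifs were chosen with earlier results of these data known. The genes named are the 10 members, Crls1, the common subunits and testis forms, up to 4 genes with the smallest p per other list plus called ones against its direction, genes within 50 kb, and the 5 genes most like each heart-type member. Ckm, Myl1, Ucp1, Dio2, Elovl3, Ppara and the neighbours printed were chosen from the lists and neighbours after their values were seen. Alternatives were pseudocounts of 0.1 and 10, other filters, equal totals, quantile normalization, other variance trends, a replicate block, an adjusted p of 0.05 and each library left out. Leaving out libraries with muscle transcripts (an AdCKO sum of markers over 2 times the highest Control sum) and a muscle covariate were added after seeing the data.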

Additional observations from a re-analysis of the deposited data

Results flagged for a closer look

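Of 28 groups of 5 libraries examined for a library far from the others, 1 was picked out. Cox6a1 in AdCKO replicate 5 stood at 13548.3 normalized reads per kb, with the nearest other AdCKO library at 9373.5, and this gap was 0.836 of the whole range of the group. About 1 in 20 groups is picked out by chance, and 1 of 28 is within that. The same library had the highest AdCKO value of Cox4i1, Cox7a1, Cox8a and Ucp1 and a summed muscle marker level of 468. Without it the log2 fold change of Cox6a1 was -1.59, the lowest of the values with 1 library left out.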

How the results depend on the processing

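Cox6a1, Cox6a2, Cox7a1 and Cox8b kept their direction and their call under all 22 alternatives run for each. The number of genes called lower was 7 in the analysis reported, 4 at the same total in every library and 3 under quantile normalization, and the number called higher was 2 at the same total. Among all tested genes, 9.57% were lower and 61.4% higher at the same total, and 31.9% and 22.2% under quantile normalization. Quantile normalization reversed Cox4i1 (0.15), Cox4i2 (-0.27) and Cox7a2l (0.067) and the Cox4i2 to Cox4i1 ratio (-0.42, exact permutation p = 0.0159). The same total reversed Cox7a2l (0.29). Cox4i2 ranged from -0.079 to 0.068 with 1 library left out and changed sign in 5 of those 10 cases (-0.079, -0.0019, -0.036, -0.014 and -0.067).

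The labels do not say whether the replicate numbers pair the samples. Same-numbered deviations correlated at -0.07, 0.09, -0.17, -0.27 and 0.10, which shows no sign of pairing but cannot exclude it. The replicate block left 7 genes lower and 1 higher, and the paired sign-flip test cannot go below 0.0625, which it gave for the ratio differences of 5.67 (6A), -0.75 (7A), -0.41 (8) and 0.68 (4). With AdCKO replicates 1, 2 and 4 left out these were 4.80, -0.56, -0.22 and 0.62, in a design that cannot pass 0.05. Leaving out 1 library gave 7 lower and 1 higher each time, and ratio differences from 5.35 to 5.94 (6A), -0.90 to -0.66 (7A), -0.51 to -0.30 (8) and 0.63 to 0.74 (4). The causes were not tested.

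The unknown depth limits statements on Cox4i2 and on Cox6a2 in Control, the lowest of the 10 genes.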
